A study of Mus musculus with 2 samples.

Results

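Heat shock proteins and their DnaJ partners form the protein-folding machinery of the cell, and the 73 genes described here are those whose symbol in the deposited gene table (32285 genes) begins with one of the mouse family stems Hspa, Hspb, Hspd, Hspe, Hsph, Hsp90a, Hsp90b, Dnaja, Dnajb or Dnajc followed by its number. The study profiled single γδ T cells of C57BL/6J mice aged 18 to 20 weeks by 10x Genomics 3' v3 sequencing, with 1 library labelled IEL from normal colon tissue and 1 labelled TIL from colon tumor. No genotype, treatment, tumour model, number of animals or cell sort is given for either library, and the description of tissue digestion, identical for both, names tumour tissue. With 1 library per tissue there is no replicate, so a difference compares 2 libraries and no test between the tissues was possible. Brackets hold exact 95% intervals, which cover the error of counting alone. The deposited counts came to 69414155 UMIs (counted transcript molecules) over 9398 cell barcodes in IEL and 94953893 over 13245 in TIL.

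HSP70 proteins (Hspa genes) bind unfolded stretches of protein, DnaJ proteins deliver the substrates and trigger ATP hydrolysis, and HSP90 proteins and the chaperonin Hspd1 with its lid Hspe1 finish folding. Some members are made at all times, whereas others are low at rest and are switched on by heat shock factor 1 when unfolded protein builds up. Separate members serve the endoplasmic reticulum, where the unfolded protein response controls them, and the mitochondria. Accordingly the members were grouped by role into 9 inducible cytosolic, 14 constitutive cytosolic, 10 endoplasmic reticulum and 9 mitochondrial genes, and 31 were in none of these lists.

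Heat shock factor 1 binds repeats of the letters GAA and their reverse complement TTC, each unit parted from the next by 2 free bases. The 250 bases before the transcription start were searched on both strands in the RefSeq promoter table (GRCm38.p6), which held 58 of the 73 members. A pair of such units (GAANNTTC or TTCNNGAA) was found before 6 of the 8 inducible members present in the table (75%), 1 of 10 constitutive (10%), 1 of 9 endoplasmic reticulum (11.1%) and 2 of 6 mitochondrial members (33.3%), against 14.5% of all 27025 genes. A gene counted if any of its listed starts had a pair. The inducible list was drawn up as targets of heat shock factor 1, and the near-identical Hspa1a and Hspa1b both count in it. Its share therefore describes the list and does not test it. A run of 3 units was found before 3 members, Hspd1, Hspe1 and Dnajb6, and before 0.514% of all genes. Of the members discussed below, Hspa8, Hsp90aa1, Hsp90ab1, Hspa9 and Dnajc11 are not in that table. The promoters of the 3 members with the widest gap between the libraries are shown in full, with the GAA and TTC units of each pair in capitals. They lie at chr17:34972157-34972406 (Hspa1a, minus strand), chr17:34959239-34959488 (Hspa1b, minus strand) and chr5:135887669-135887918 (Hspb1, plus strand), and the pair begins 104 bases before the start in Hspa1a and Hspa1b, and 117 and 97 bases before it in Hspb1.
Hspa1a: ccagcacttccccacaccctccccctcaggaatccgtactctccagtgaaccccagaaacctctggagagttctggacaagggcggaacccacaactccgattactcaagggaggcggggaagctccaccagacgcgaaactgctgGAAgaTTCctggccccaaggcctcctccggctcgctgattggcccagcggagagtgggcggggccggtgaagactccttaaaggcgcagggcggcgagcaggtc
Hspa1b: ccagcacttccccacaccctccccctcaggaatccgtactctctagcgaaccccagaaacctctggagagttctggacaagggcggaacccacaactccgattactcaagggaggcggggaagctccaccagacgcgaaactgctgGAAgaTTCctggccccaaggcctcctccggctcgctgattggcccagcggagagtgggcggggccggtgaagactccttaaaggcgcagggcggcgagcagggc
Hspb1: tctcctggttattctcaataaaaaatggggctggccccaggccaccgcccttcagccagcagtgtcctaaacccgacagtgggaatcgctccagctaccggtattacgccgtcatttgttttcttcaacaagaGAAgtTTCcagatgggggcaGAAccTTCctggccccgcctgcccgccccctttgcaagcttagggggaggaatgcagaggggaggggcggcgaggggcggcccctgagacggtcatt
The Hspa1a and Hspa1b promoters have the same base at 247 of 250 positions. For 6 further members the 30 bases around the units are given, with overlapping runs of 3 units that fall in both the Hspd1 and Hspe1 windows (chr1:55088053-55088082, shown for Hspd1 on the minus strand; the annotated genes overlap, and the stretch lies inside Hspd1 and before the start of Hspe1) and a run of 3 in Dnajb6 (chr5:29735843-29735872, plus strand). The others lie at chr5:149636351-149636380 (Hsph1, minus strand), chr4:40722333-40722362 (Dnaja1, plus strand), chr3:152193846-152193875 (Dnajb4, minus strand) and chr9:54699496-54699525 (Dnaja4, plus strand). Dnaja4 has a pair 52 bases before the start, which is shown, and another 90 bases before it, which is not.
Hsph1: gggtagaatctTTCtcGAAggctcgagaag
Dnaja1: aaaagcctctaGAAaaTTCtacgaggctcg
Dnajb4: gttcgttcgttcgctgTTCtaGAAagtaca
Dnaja4: gcctcctggcgGAAccTTCcgccggcgccg
Hspd1: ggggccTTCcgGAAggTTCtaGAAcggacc
Dnajb6: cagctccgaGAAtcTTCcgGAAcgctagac
A match is a description of letters, not of a bound site.

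Cells were grouped by clustering both libraries together with the members and other stress genes left out, so that the groups were not drawn from the values reported. Clusters were called γδ T-like if they held γδ T markers and met no rule for another cell type, high doublet score or low UMIs. These clusters held 8181 IEL and 11045 TIL cells, with a median of 6959 and 6400 UMIs per cell. Levels are given as CPM, the UMIs of a gene summed over the cells of a group and scaled to a common total. The 12 γδ T markers summed to 4817 CPM in IEL and 10380 in TIL γδ T-like cells, and a δ or γ constant segment UMI was found in 99.7% of the cells in both. A UMI of Trac, the α constant segment, was found in 82.1% and 36.6% of them. Their subsets differed: 8000 IEL cells were cytotoxic-like, against 447 TIL cells, and most other TIL cells were IL-17-like. The libraries were therefore also compared in 2 narrower sets of cells. Cytotoxic-like IEL cells lay in clusters 1 to 4 and the TIL cells mostly in cluster 17 (276 cells), and cluster 5 (880 IEL and 399 TIL cells) was the one large cluster both libraries filled; it was left unnamed because its 10 leading genes held Ighm, a B cell marker, and no γδ T marker. Both libraries share 33 cell barcodes, and leaving these out moved Hspa1a in TIL γδ T-like cells from 10.45 to 10.48 CPM.

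All 9 inducible members had a higher value in IEL γδ T-like cells, beside 3500 of all 6343 genes at 20 CPM in either library. Hspa1a, Hspa1b and Hspb1 were the members furthest apart between the libraries. Hspa1a and Hspa1b, the stress-inducible HSP70 genes, lie near each other (chr17:34969190-34972156 and chr17:34956436-34959238, minus strand). In γδ T-like cells Hspa1a stood at 761.6 CPM in IEL against 10.45 in TIL, and Hspa1b at 637.4 against 13.78. That is a 72.9-fold (68.1 to 78.1) and a 46.3-fold (43.6 to 49.1) higher level in IEL. Hspb1, the small heat shock protein HSP27 that holds unfolded proteins in a soluble state, stood at 40.97 against 1.121 CPM, 36.5-fold higher in IEL (29.6 to 45.5). Dnajb1, the HSP40 partner of inducible HSP70, stood at 382.4 against 67.54 CPM (5.66-fold, 5.50 to 5.83), and Hsph1, the nucleotide exchange factor HSP110, at 231.3 against 38.54 CPM (6.00-fold, 5.77 to 6.24). The remaining inducible members were closer together, and Hspa2, Dnajb13, Hspb11, Dnajc15 and Hspd1, described below, differed by more than they did. Hsp90aa1, the stress-responsive HSP90, stood at 1565 CPM in IEL and 636.5 in TIL (2.46-fold), Dnaja1 at 799.4 and 354.5 (2.26-fold) and Dnajb4 at 51.19 and 22.75 (2.25-fold). Only Hspa4l, an HSP110 relative, stayed within 2-fold, at 51.64 and 43.33 CPM.

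Of the 73 members, 46 reached 20 CPM in γδ T-like cells of either library and are compared here. Among those 46, 14 (30.4%) were at least 2-fold higher in IEL with an interval that excluded 1, against 14.7% of all 6343 genes at that level. These 14 were 8 inducible members, 3 mitochondrial members and 3 of no list: Hspb11 (58.27 and 15.39 CPM, 3.79-fold), the J protein Dnaja4 (91.75 and 43.07 CPM, 2.13-fold) and Hspa2 (64.08 and 10.75 CPM, 5.96-fold). Only 2 members (4.35%) were at least 2-fold higher in TIL, Dnajc10 and Dnajb13, against 11.4% of all genes. The median log2 ratio of TIL over IEL was -2.50 for the 9 inducible members, -0.155 for the 14 constitutive, 0.606 for the 9 endoplasmic reticulum members and -0.939 for the 6 mitochondrial members at that level, beside -0.0949 for all genes. Members made up 1.43% of UMIs in IEL and 0.885% in TIL γδ T-like cells. The inducible list alone made up 0.452% and 0.119%.

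**Figure D1:**
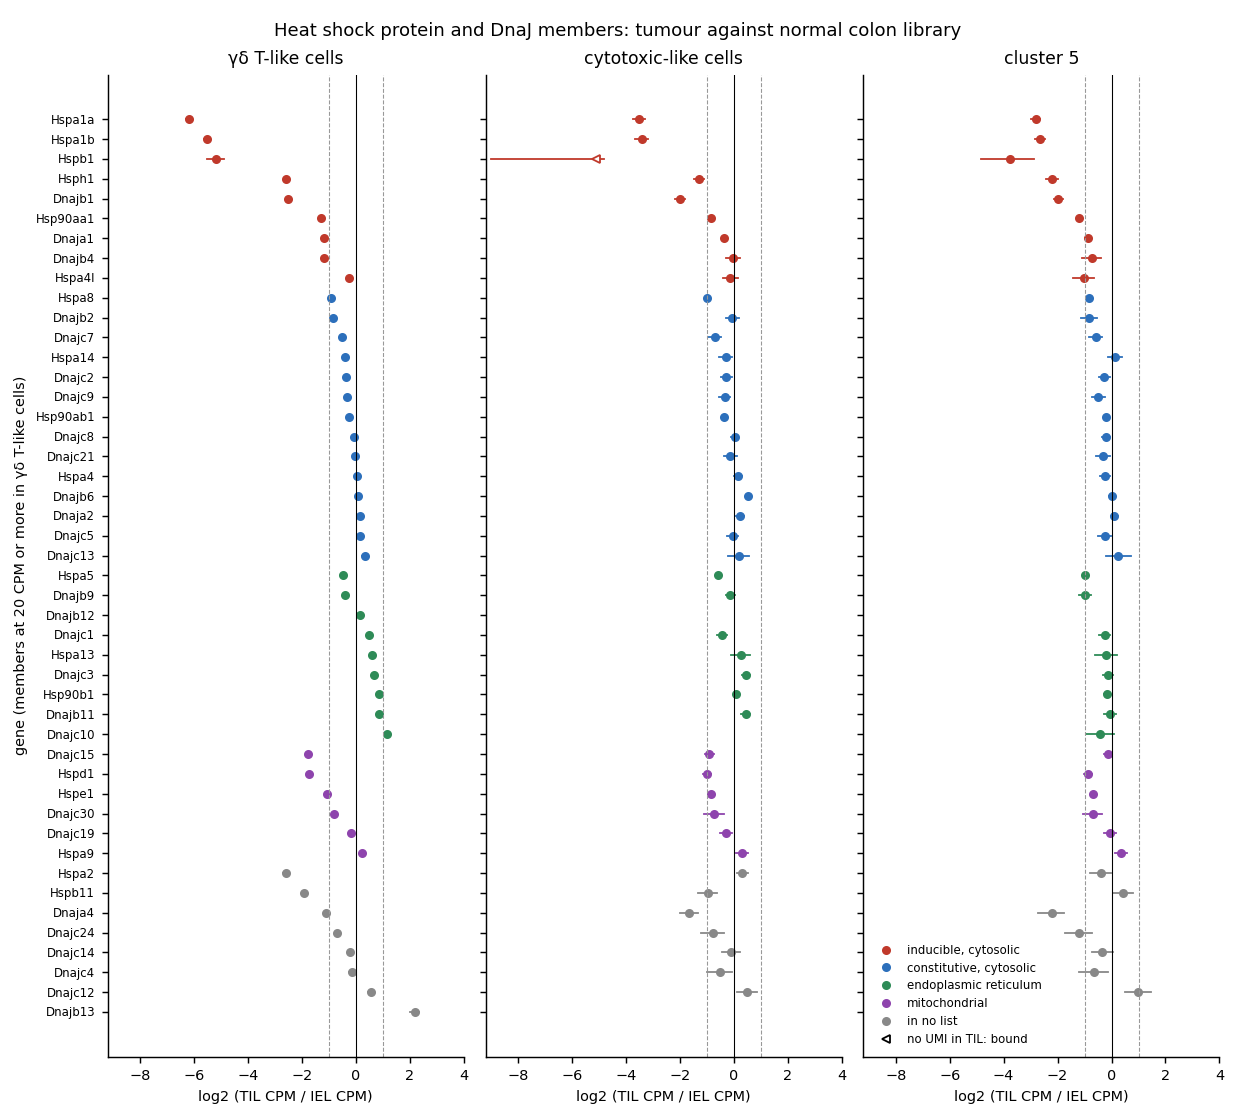
Log2 ratio of CPM in TIL over IEL for each member at 20 CPM or more, coloured by role, in γδ T-like cells (left), cytotoxic-like cells (centre) and cluster 5 (right). Bars are exact 95% intervals of counting error, dashed lines mark 2-fold, and members under 20 CPM in a panel are left out of it. Hspa1a, Hspa1b and Hspb1 lie furthest to the IEL side in each panel, and the constitutive members lie within 2-fold.

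The constitutive cytosolic chaperones lay within 2-fold in all 14 cases under the main settings. Hspa8, the HSC70 protein that folds newly made proteins in unstressed cells, was the furthest from equal, at 2204 CPM in IEL and 1156 in TIL (1.91-fold, 1.89 to 1.92). Hspa8 and Dnajb2 passed 2-fold in cells with a δ or γ constant UMI and no Trac. Hspa8 also passed it with totals that left out members, ribosomal and mitochondrial genes. In cytotoxic-like cells Hspa8 did so with those totals, with genes centred within each library, with a mean over cells and with cluster 17 alone. Hsp90ab1, the constitutive HSP90, stood at 1963 and 1642 CPM (1.20-fold, 1.19 to 1.20), and Dnajb6, which keeps aggregation-prone proteins from clumping, at 330.6 and 346.5 CPM. Inducible and constitutive HSP70 can be set against each other within a library. For every 100 UMIs of Hspa8 there were 63.5 UMIs of Hspa1a and Hspa1b together in IEL γδ T-like cells and 2.09 in TIL. The corresponding figures were 79.7 and 38.8 for Hsp90aa1 per 100 UMIs of Hsp90ab1. These ratios are compared between libraries and not between genes.

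Of the 9 endoplasmic reticulum members at 20 CPM, 7 had a higher value in TIL γδ T-like cells, beside 2843 of all 6343 genes. In cluster 5 all 8 at that level had a higher value in IEL, beside 3640 of all 6002 genes. Hsp90b1, the reticulum's HSP90 known as GRP94, stood at 448.0 CPM in IEL and 805.8 in TIL (1.80-fold higher in TIL, 1.77 to 1.82), Dnajb11 at 99.36 and 180.1 (1.81-fold, 1.76 to 1.87), Dnajc1 at 127.7 and 181.0, and Dnajc10, a reductase of wrong disulfide bonds, at 15.51 and 34.82 (2.25-fold, 2.09 to 2.42). Hspa5, the reticulum's HSP70 known as BiP, went the other way, with 1462 and 1062 CPM. Hsp90b1 differed between subsets of the TIL library. It lay between 671.2 and 1076 CPM in the 5 IL-17-like clusters and at 993.3 in cycling-like cluster 18. In cytotoxic-like cluster 17 it stood at 554.5 CPM and in recirculating-like cluster 11 at 240.4. Hspa5 ran from 1365 to 1521 CPM over the IEL clusters and from 669.1 to 1170 over the TIL clusters of T-like cells. In cytotoxic-like cells Hsp90b1 stood at 443.9 (IEL) and 468.9 (TIL) CPM. That ratio turned to the IEL side at Leiden resolution 2 (log2 -0.14). The median log2 ratio of the list in cytotoxic-like cells was 0.0793, beside -0.0227 for all genes. In cluster 5 it was -0.22, near the -0.141 of all genes. There Hspa5 stood at 1376 CPM in IEL and 693.4 in TIL (1.98-fold) and Dnajb9 at 150.3 and 75.56 (1.99-fold).

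Among the mitochondrial members, Hspd1 (HSP60) stood at 340.5 CPM in IEL and 102.9 in TIL (3.31-fold, 3.23 to 3.39), and its lid Hspe1 (HSP10) at 527.2 and 249.5 CPM (2.11-fold, 2.08 to 2.15). Dnajc15, a J protein of the inner membrane, stood at 240.9 and 70.46 CPM (3.42-fold, 3.32 to 3.52). Hspa9, the mitochondrial HSP70 called mortalin, lay slightly to the TIL side (62.72 and 72.60 CPM). Of the 6 mitochondrial members, 3 were past 2-fold and 3 were not. In cytotoxic-like cells none was called, with Hspd1 at 341.5 and 171.0 CPM and Dnajc15 at 242.5 and 129.9. The median log2 ratio of the list there was -0.779, beside -0.0227 for all genes. In cluster 5 none of the 7 at 20 CPM was called either, and the median was -0.132, near the -0.141 of all genes. There Hspd1 stood at 379.2 and 207.0 CPM (1.83-fold) and Dnajc15 at 240.4 and 219.3 (1.10-fold, 0.996 to 1.21).

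In the narrower comparisons Hspb1, Hspa1a and Hspa1b were again the members furthest apart. In cytotoxic-like cells Hspa1a stood at 770.4 CPM in IEL and 67.17 in TIL (11.5-fold, 9.84 to 13.4), and Hspa1b at 646.4 and 61.06 (10.6-fold, 9.02 to 12.5). The TIL values came mostly from 171 cells that lay in clusters 1 to 4 with the IEL cells, at 161.8 CPM of Hspa1a and 143.6 of Hspa1b. The other 276 TIL cells, in cluster 17, stood at 3.406 and 5.450 CPM, and against them alone the log2 ratio of TIL over IEL was -7.82 for Hspa1a and -6.89 for Hspa1b. Hspb1 had 2519 UMIs in the IEL cells and 0 in the TIL cells. With 3 UMIs put in place of the TIL count it was 34.2-fold higher in IEL, and the lower end of the exact interval was 27.8-fold. Dnajb1 was 3.95-fold, Dnaja4 3.12-fold and Hsph1 2.42-fold higher in IEL. These were the 6 of 43 members past 2-fold on the IEL side (14%, against 4.83% of all genes), and 0 were past it on the TIL side (3.14% of all genes). Dnajb4 (51.85 and 51.29 CPM), Hspa4l (51.88 and 47.63 CPM) and Dnaja1 (803.7 and 625.7 CPM) were within 1.5-fold. Constitutive Hspa8 was 1.99-fold higher in IEL (1.91 to 2.06), more than inducible Hsp90aa1 (1.81-fold). Hspa2, an HSP70 relative known from the testis, was 5.96-fold higher in IEL over all γδ T-like cells but stood at 64.07 (IEL) and 80.19 (TIL) CPM among cytotoxic-like cells, a ratio that turned to the IEL side with a looser filter on cells (log2 -0.16) and at Leiden resolution 2 (-0.46).

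In cluster 5, which both libraries filled, Hspa1a stood at 834.6 CPM in IEL and 119.1 in TIL (7.0-fold, 6.27 to 7.84). Hspb1 stood at 48.04 and 3.515 CPM (13.7-fold, 7.32 to 28.8), Hspa1b at 569.3 and 89.62 (6.35-fold), Dnaja4 at 68.91 and 14.76 (4.67-fold) and Hsph1 at 283.3 and 61.50 (4.61-fold). Together with Dnajb1, Dnajc24, Hsp90aa1 and Hspa4l these made 9 of 45 members at least 2-fold higher in IEL (20%, against 6.6% of all genes), with 0 members past 2-fold on the TIL side (2.68% of all genes). Hspa8 (2509 and 1412 CPM) and Hsp90ab1 (2300 and 1982 CPM) were again within 2-fold.

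Within the TIL library the inducible HSP70 genes also differed from cluster to cluster. Hspa1a was lowest in IL-17-like cluster 9 (0.6831 CPM) and highest in the 55 TIL cells of cluster 4 (227.2 CPM), a cluster otherwise made of 2448 IEL cells at 981.6 CPM. The 67 TIL cells of cluster 2 stood at 120.8 CPM. Cluster 13 (7 IEL and 249 TIL cells) was left unnamed by the same rule as cluster 5, so it lies outside the cytotoxic-like cells. A share of 0.833 of the cytotoxic-like markers reached 50 CPM in it. Its TIL cells stood at 77.11 CPM of Hspa1a and 66.74 of Hspa1b, above cluster 17. Cluster 17 held no IEL cell. With cluster 17 alone as the TIL side, 11 rather than 6 members were at least 2-fold higher in IEL cytotoxic-like cells, against 7.58% of all genes; this comparison was added after the values were seen. Across the 6 IEL clusters of at least 50 cells Hspa1a ran from 530.0 to 981.6 CPM, so no TIL cluster reached the lowest IEL cluster. Hspb1 ran from 9.273 to 105.8 CPM over the IEL clusters and from 0 to 3.515 CPM over the TIL clusters of T-like cells.

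Dnajb13, a J protein known from the sperm flagellum, was the member most on the TIL side, at 6.457 CPM in IEL and 29.20 in TIL γδ T-like cells (4.52-fold, 4.07 to 5.04). It stood between 22.85 and 63.93 CPM in the 5 IL-17-like TIL clusters and in TIL cycling-like cluster 18 at 30.26 CPM, but at 0.6812 CPM in cytotoxic-like cluster 17 and 1.301 CPM in recirculating-like cluster 11. Exons of Dnajb13 and of Ucp2 overlap on opposite strands. The counting is not stated to use strand, and Ucp2 stood at 363.6 CPM in IEL and 325.7 in TIL.

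**Figure D2:**
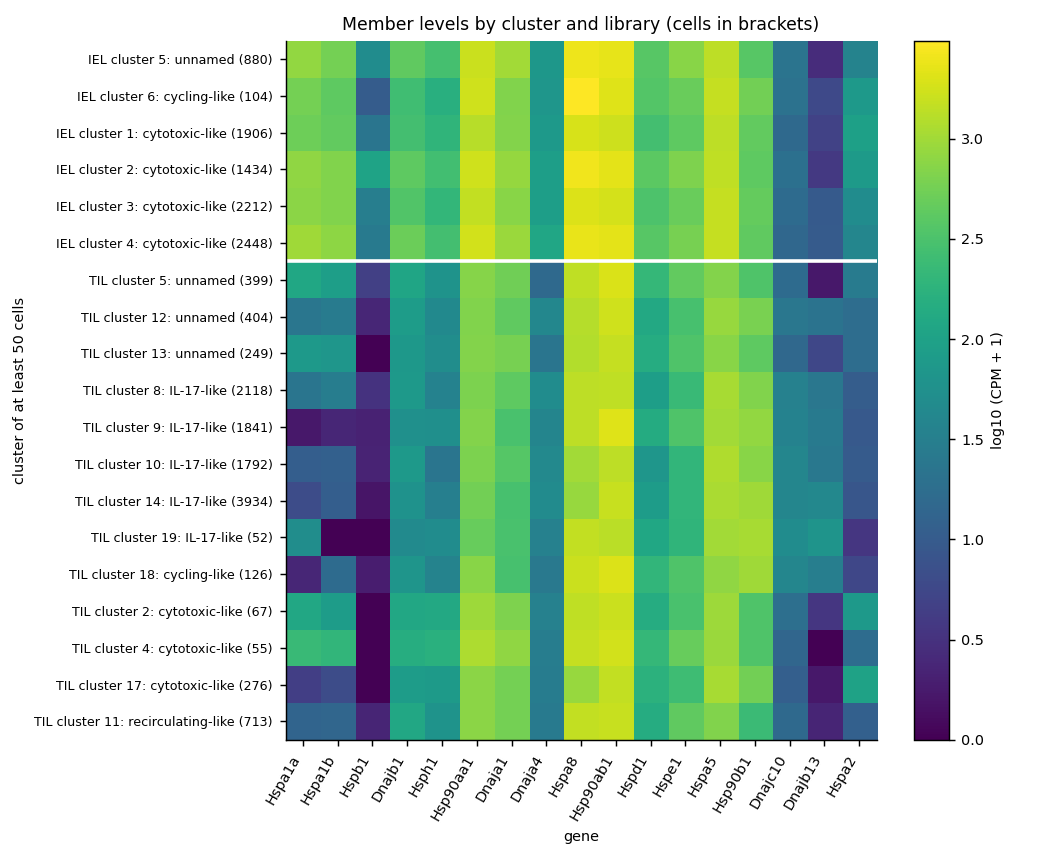
Level of 17 members, as log10 of CPM plus 1, in each cluster of at least 50 cells per library, IEL above the white line and TIL below it, with cell numbers in brackets. Hspa1a and Hspa1b are brighter in every IEL cluster than in any TIL cluster, Hspb1 is dark in TIL, and Hsp90aa1, Dnaja1, Hspa8, Hsp90ab1 and Hspa5 are bright throughout.

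The HSP70 signal was concentrated in a minority of cells. When each cell was thinned to 2000 UMIs at random, 30.4% of 8119 IEL γδ T-like cells (29.4 to 31.4) held an Hspa1a or Hspa1b UMI, against 1.47% of 10987 TIL cells (1.25 to 1.71), and 62 and 58 cells were too shallow. Without thinning the shares were 45.3% and 2.98%. In the same draw 93.8% of IEL and 81.8% of TIL cells held a UMI of constitutive Hspa8. Cells without an Hspa1a or Hspa1b UMI are not shown to lack the transcript. The median IEL cell had 0 such UMIs, the 90th percentile had 7 and the highest cell 131, and the 796 cells with 8 or more made up 9.8% of all cells. The variance over the mean was 17.9 for Hspa1a and 14.6 for Hspa1b in IEL cells, 7.41 for Hspb1, 6.63 for Hsp90aa1 and 5.21 for Dnajb1, against 3.94 for Hspa8. For the other 4 inducible members it was 2.65 (Hsph1), 2.62 (Dnaja1), 1.18 (Hspa4l) and 1.15 (Dnajb4). This measure depends on the mean, which was 4.35 UMIs for Hspa8 and 0.47, 1.61, 0.105 and 0.107 for these 4. It therefore does not rank how unevenly they and Hspa8 were spread. In TIL cells it was 7.2 for Hspa1a and 15.1 for Hspa1b. There it was 1.15 for Hspb1, 2.05 for Hsp90aa1 and 1.14 for Dnajb1, against 1.97 for Hspa8. In cluster 5 the shares were 29.4% of IEL (26.4 to 32.5) and 5.06% of TIL cells (3.12 to 7.71), and among cytotoxic-like cells 30.5% (29.5 to 31.6) and 4.30% (2.61 to 6.63). No cell type in these libraries is known to lack HSP70 genes, so the level of free RNA could not be read from one. TIL macrophage or monocyte-like cells, at 4.11% (1.90 to 7.66), lay above the TIL γδ T-like share.

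**Figure D3:**
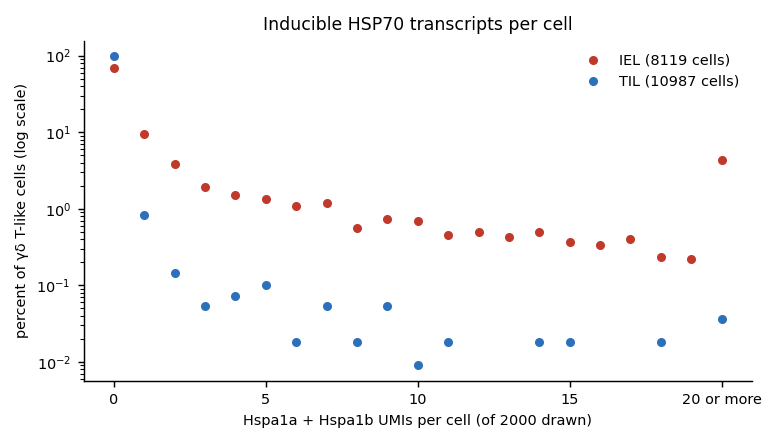
Percent of γδ T-like cells (log axis) with each number of Hspa1a and Hspa1b UMIs after thinning to 2000 UMIs per cell, in IEL and TIL, with the last point for 20 or more and no point where no cell had that number. The IEL points run to 20 or more UMIs at every count, and the TIL points fall off after 0.

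Cells of the IEL library could also be set against each other, without comparing libraries. IEL γδ T-like cells were binned by their thinned Hspa1a and Hspa1b UMIs into 5649 cells with 0, 782 with 1, 474 with 2 to 3, 418 with 4 to 7 and 796 with 8 or more. These bins had close median depths (6979 UMIs in the bin of 0 and 7069 in the highest) and mitochondrial shares (2.20% and 1.99%). Besides Hspa1a and Hspa1b, which made the bins, 12 of 40 members at 20 CPM were at least 2-fold higher in the highest bin than in the bin of 0, against 1.30% of all genes. None was 2-fold lower, but only 0.185% of all genes were, so that count says little about the members. All 7 other inducible members were among the 12. Hspb1 went from 7.019 to 247.6 CPM (35.3-fold), Dnajb1 from 130.3 to 1932 (14.8-fold), Hsph1 from 94.14 to 939.0 (9.97-fold) and Hsp90aa1 from 910.3 to 5067 (5.57-fold). Dnaja1 was 3.25-fold, Hspa4l 2.84-fold and Dnajb4 2.65-fold higher in the highest bin.

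The other 5 of the 12 were not on the inducible list. Dnaja4 went from 39.53 to 389.5 CPM (9.85-fold), Hspd1 from 188.6 to 1152 (6.11-fold) and Hspe1 from 370.2 to 1329 (3.59-fold). Hspa8 (1627 to 5212 CPM, 3.20-fold) and Hsp90ab1 (1468 to 4566 CPM, 3.11-fold), both listed as constitutive, were also higher in the cells rich in inducible HSP70. The other 12 constitutive members had ratios between 0.789 and 1.05, and the median of the list was 0.956. None of the 9 endoplasmic reticulum members reached 2-fold (range 0.745 to 1.19), with Hspa5 at 1499 and 1348 CPM. The 4 other mitochondrial members were not higher either, Dnajc15 going from 244.4 to 207.1 CPM. So the 3.42-fold gap of Dnajc15 between the libraries had no counterpart within IEL, while those of Hspd1 and Hspe1 had one.

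**Figure D4:**
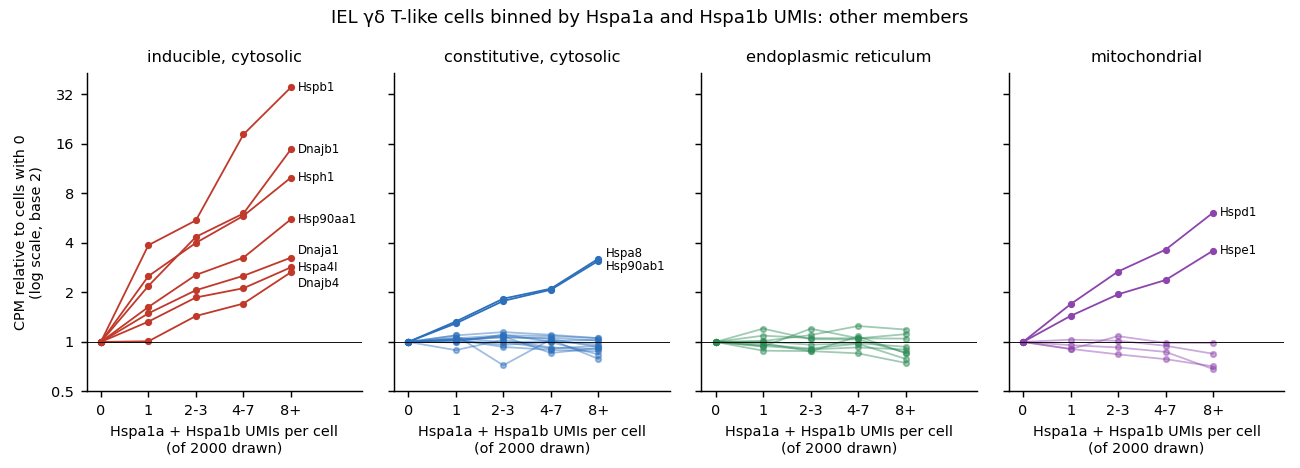
CPM of members other than Hspa1a and Hspa1b in IEL γδ T-like cells, relative to cells with 0 Hspa1a and Hspa1b UMIs (log axis, base 2), by bin of those UMIs among 2000 drawn per cell and by role. All 7 inducible members climb with the bins, as do Hspa8, Hsp90ab1, Hspd1 and Hspe1, and the other named-list members stay near 1.

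The bins were also made in other cells. In IEL cells of cluster 5, 13 of 45 members were at least 2-fold higher in the highest bin (80 cells) than in the bin of 0 (616 cells), against 2.67% of all genes, and these were the same 12 and Hspa2. In the TIL library 70 γδ T-like cells held 2 or more Hspa1a or Hspa1b UMIs of the 2000 drawn. There 9 of 41 members were at least 2-fold higher than in the 10826 cells with 0 (4.92% of all genes): Hsph1 (9.51-fold), Dnajb1 (5.02-fold), Hsp90aa1 (4.19-fold), Hspd1 (4.0-fold), Dnaja1 (3.80-fold), Hspa8 (2.71-fold), Hspe1 (2.56-fold), Dnajb4 (2.54-fold) and Dnaja4 (2.15-fold). Of the 12 members of the IEL bins, Hspa4l (1.87-fold) and Hsp90ab1 (1.76-fold) did not reach 2-fold here, and Hspb1 was under 20 CPM. The median depth of the 70 cells was lower (4928.5 against 6433.5 UMIs). The cells of the bin of 0, with no Hspa1a or Hspa1b UMI among the 2000 drawn, still held 26.76 CPM of Hspa1a and 25.68 of Hspa1b in IEL, against 0.6626 and 1.988 in TIL, when all their UMIs were counted. In these cells Dnajb1 stood at 130.3 CPM in IEL and 65.70 in TIL, Hsp90aa1 at 910.3 and 623.7, and Hspa8 at 1627 and 1143.

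The promoter letters shown above were also counted by these bins. Of the 14 members at least 2-fold higher in the highest IEL bin, counting Hspa1a and Hspa1b, 11 were in the promoter table and 9 of them (81.8%) had a GAANNTTC or TTCNNGAA pair, namely the 7 members Dnaja1, Dnaja4, Dnajb4, Hspa1a, Hspa1b, Hspb1 and Hsph1, and Hspd1 with Hspe1. Hspa1a and Hspa1b made the bins and have near-identical promoters, and the units of Hspd1 and Hspe1 lie in the same stretch. The 9 are therefore not separate sequences, and the share cannot be read as separate counts. Among the other members at 20 CPM, 2 of 26 (7.69%) had a pair, Dnajb6 and Dnajc10, beside 14.5% of all genes. Dnajb6 carries a run of 3 units and was at 329.6 CPM in the bin of 0 and 339.0 in the highest. Dnajb1, 14.8-fold higher in the highest bin, had no pair in its windows.

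Genes outside the family that act with it were counted from separate lists. Of 22 listed heat shock factors and cochaperones at 20 CPM, 3 were at least 2-fold higher in IEL γδ T-like cells and 1 in TIL, beside 14.7% and 11.4% of all genes, so the IEL count was near the background. Bag3, a cochaperone of HSP70 induced by heat shock factor 1, stood at 24.59 CPM in IEL and 6.038 in TIL, Hsf1 itself at 51.75 and 19.33, and Cacybp at 163.0 and 74.23, while Hsf2 stood at 8.555 and 32.86. Of 21 such genes, 1 was higher in IEL cytotoxic-like cells (4.83% of all genes) and 4 in IEL cells of cluster 5 (6.6%), with 0 higher in TIL in either. Hsf1 was called in neither set, at 52.03 and 35.42 CPM in cytotoxic-like cells and 62.07 and 31.63 in cluster 5. In the IEL bins 7 of 21 of these genes were at least 2-fold higher in the highest bin (1.3% of all genes), led by Bag3 (9.389 to 134.2 CPM, 14.3-fold) and Cacybp (3.41-fold). Of 19 unfolded protein response genes, 3 were at least 2-fold higher in IEL, again near the 14.7% of all genes, namely Ddit3 (238.1 and 17.07 CPM), Atf4 (686.9 and 231.4 CPM) and Herpud1 (211.0 and 96.34 CPM). The 4 higher in TIL (11.4% of all genes) were led by Ern1 (32.54 and 111.8 CPM), Manf (188.6 and 486.8 CPM) and Canx (90.95 and 215.1 CPM). In cytotoxic-like cells 0 of 19 were higher in TIL (3.14% of all genes) and 2 in IEL (4.83%). The counts in cluster 5 were 1 (2.68%) and 3 (6.6%) of 19. Manf had a higher value in IEL in both, at 184.6 and 155.9 CPM and at 175.0 and 158.9.

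Immediate early genes are known to be switched on by tissue dissociation. Of 16 at 20 CPM, 6 were at least 2-fold higher in IEL γδ T-like cells (14.7% of all genes) and 1, Nfkbia, in TIL (358.6 and 1612 CPM; 11.4% of all genes). Egr1, Ier2, Ier5 and Atf3 had slightly higher values in TIL, within 2-fold. Fos stood at 2079 and 165.6 CPM, Fosb at 774.5 and 229.5, and Jun at 1664 and 501.2. Their summed level was 13560 CPM in IEL and 8393 in TIL, and in cluster 5 it was 16890 and 6259. Within IEL it went from 12110 CPM in the bin of 0 to 20680 in the highest bin, where Atf3 was 15.7-fold and Jun 3.48-fold higher but Fos only 1.17-fold. Digestion time and temperature are not given. Whether the libraries were handled alike cannot be told, the part of dissociation in these values was not tested, and library and tissue cannot be told apart. The median mitochondrial share was 2.17% in IEL and 2.22% in TIL γδ T-like cells. Erythroid markers summed to 0.2083 CPM in IEL and 1669 in TIL γδ T-like cells, and to 0.2155 and 101.4 CPM in cytotoxic-like cells; their part in the results was not tested.

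The other 27 members stayed under 20 CPM in γδ T-like cells of both libraries. Of these 6 reached 5 CPM in either library, among them Dnaja3 (17.35 and 10.55 CPM) and Dnajc11 (16.92 and 18.18 CPM), both mitochondrial. Dnajb7, Dnajb8, Dnajc5g and Hspb3 had 0 UMIs in every deposited barcode. In the annotation, 14 of the 46 members at 20 CPM have an exon that overlaps another counted gene, and 3 (Hspe1, Hspa14 and Hspb11) share stretches of 91 bases near their transcript ends with another gene. Hspa1a and Hspa1b, although near-identical along much of their length, share no such stretch within the last 500 bases of their transcripts.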

How the data were processed

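Cells were sequenced with 10x Genomics 3' chemistry, 1 library per tissue. The authors deposited filtered matrices of UMI counts per gene and cell, made with Cell Ranger 6.1.1 on mm10 per the submitters' processing notes. Barcodes with at least 500 genes, 1000 UMIs and at most 10% mitochondrial UMIs were kept (9128 IEL, 12407 TIL). Scrublet marked 2 IEL and 0 TIL barcodes as doublets, and these calls were taken as not working, so no barcode was removed on them. Its scores were used in naming clusters. Cluster 12 (21 IEL and 404 TIL cells) had a median score of 0.2573, above the limit of 0.2. It was left unnamed and so lies outside the γδ T-like cells. Cells were clustered with scanpy 1.11.5 (2000 variable genes without members, 30 components, 15 neighbours, Leiden resolution 1), and the names are rebuilt from markers, not the authors'. UMIs were summed per library and group. A gene at 20 CPM in either library was called at 2-fold or more with an exact 95% binomial interval that excluded 1. On simulated counts (5788 genes) this called 0% of unchanged genes and 100% of genes changed 2.5-fold. Those counts held counting error alone, at the depth of the γδ T-like sums. They cannot show how the calls fare with spread between animals, libraries or cells, or in the smaller sets of cells. Members and lists were chosen with earlier results of these data known. Named with values were the inducible list, members past 2-fold, the 3 highest of each other list and the 3 most changed other genes in each direction; Dnajb11, Dnajc11, Dnaja3 and Hspa9 were chosen after their values were seen. Promoters came from RefSeq (GRCm38.p6).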

Additional observations from a re-analysis of the deposited data

Results flagged for a closer look

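For 3 members the libraries differed in opposite directions in cytotoxic-like cells and in cluster 5, and the difference between these groups was not tested. The log2 ratio of TIL over IEL of Hspb11 was -0.96 in cytotoxic-like cells and 0.42 in cluster 5. That of Hspa4, an HSP110 relative, was 0.16 and -0.25. That of Hspa2 was 0.32 and -0.39.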

How the results depend on the processing

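No paired analysis was possible because each tissue has 1 library, and for the same reason no replicate could be left out. Among 552 recomputed values of the 23 named members, 376 stayed within their counting interval and 176 moved outside it. No called value changed sign, and 7 values that were not called did, 6 of them in cytotoxic-like cells: Hspa2 (0.324) became -0.164 with the looser filter and -0.457 at Leiden resolution 2, Hsp90b1 (0.079) -0.137 at that resolution, and Dnajc10 (-0.189) 0.208 and Dnajb13 (-2.374, under 20 CPM) 0.908 with genes centred. Dnajb4 (-0.016) became 0.007 with the median ratio set to 1, and in γδ T-like cells Dnajb6 (0.068) became -0.011 with the reduced totals. The median log2 ratio of TIL over IEL moved as follows, in the order inducible, constitutive, endoplasmic reticulum and mitochondrial. With the median ratio of all genes set to 1 the medians were -2.406, -0.061, 0.700 and -0.844. With totals that left out members, ribosomal and mitochondrial genes they were -2.580, -0.234, 0.476 and -0.837. With only cells that held a δ or γ constant UMI and no Trac they were -2.738, -0.217, 0.463 and -1.085. A floor of 50 CPM gave -1.900 for inducible, -0.257 for constitutive and -1.079 for mitochondrial members, and a floor of 5 CPM gave -0.758 for mitochondrial members. Leiden resolution 2 gave -2.336 and -0.111, and a mean over cells -2.436 and -0.188, for inducible and constitutive members. Members higher in TIL γδ T-like cells numbered 0 at the floor of 50 CPM, where fewer genes are tested, and 1 in cells without Trac. Members higher in IEL cytotoxic-like cells numbered 12 with genes centred within each library (6.45% of all genes) and 11 with cluster 17 alone (7.58%), an alternative chosen after seeing the data; the cause was not tested. The share of γδ T-like cells with an Hspa1a or Hspa1b UMI was 23.8% in IEL and 0.933% in TIL when thinned to 1000 UMIs, and 20.8% and 0.637% with at least 2 UMIs required.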
